A study of Mus musculus with 2 samples.

Results

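Isl1, Nkx2-5, Nkx2-6, Hand1, Hand2 and Mef2c, transcription factors known as core regulators of cardiac progenitors, were taken as a list by name, and all 6 were found among the 16388 genes present in both count matrices (17492 genes in the E9.5 matrix, 17348 in the E10.5 matrix). They were measured in single cells of the second heart field (the mesoderm that feeds both poles of the heart tube) of wild-type mouse embryos at embryonic day (E) 9.5 and E10.5, with 1 sample per stage. Per the labels the cells are Osr1+, without a statement of how they were chosen, were freed with trypsin and were captured on the 10x Chromium controller, and every cell had at least 1 Osr1 UMI in the counts. A UMI is a molecular tag that marks 1 captured transcript. The barcode suffix gives the dissected position. The E9.5 sample held 54 anterior, 61 middle and 418 posterior cells, and the E10.5 sample held 31 outflow tract, 45 anterior, 331 middle and 560 posterior cells. All embryos were unmanipulated wild type. The labels do not say how many embryos were pooled, so p-values between positions measure only the spread between 2 stage samples. Those between cell classes within libraries measure the spread between libraries of the same 2 samples.

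Isl1 is a LIM homeodomain factor that marks undifferentiated second heart field cells and also pharyngeal endoderm and motor neurons. Nkx2-5 and Nkx2-6 are NK2 homeodomain factors, the first of heart progenitors and muscle, the second of pharyngeal endoderm and the heart poles. Hand1 and Hand2 are basic helix-loop-helix factors of left ventricle and of second heart field and right ventricle, which dimerise with E proteins. Mef2c is a MADS box factor that switches on muscle genes and is known as a target of Isl1, Gata factors and Nkx2-5.

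Depth and cell content differed between libraries. Totals ran from 1296187 to 13647039 UMIs in the E9.5 libraries and from 196584 to 3448474 in the E10.5 libraries, and the median cell held 30202 UMIs at E9.5 and 5371 at E10.5. Xist, the X inactivation transcript, was detected in 1 of the 533 younger and 903 of the 967 older cells, so stage, sex of the embryos and depth cannot be told apart. Levels are CPM (UMI counts scaled to a common library total), and 3 counts, the limit that a count of 0 allows, equal 0.220 to 2.31 CPM in the E9.5 libraries and 0.870 to 15.3 CPM in the E10.5 libraries. Cells with 2 or more UMIs of Epcam, an epithelial adhesion gene, made up 63.0% of the E9.5 anterior, 34.4% of the middle and 15.1% of the posterior library. At E10.5 they were 9.68% of the outflow tract, 2.22% of the anterior, 4.83% of the middle and 10.4% of the posterior library, where the lower depth makes the same limit stricter. Of the 5 markers of second heart field splanchnic mesoderm, Tbx5 was at 0 counts in both anterior libraries and in the outflow tract, and Foxf1 had 1 count in the E10.5 anterior library. Tbx1, also among the 5, ran the other way. It was at 88.7 CPM in the E9.5 anterior, 59.1 CPM in the E10.5 anterior and 40.7 CPM in the outflow tract library. In the E9.5 and E10.5 posterior libraries it was at 8.57 and 2.03 CPM. Erythroid markers summed to between 34.4 and 151 CPM in E9.5 libraries, and in E10.5 libraries to between 1007 and 5495 CPM. Their part in the levels was not tested. In sums over a library, fewer cells of a type and less RNA per cell cannot be told apart. No 2 libraries shared a barcode sequence except E10.5 middle and posterior, which shared 1.

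The RefSeq promoter windows (250 bases before to 50 after a start, GRCm38.p6) covered 4 of the 6 members. Those of Nkx2-5 and Mef2c are shown because these genes varied together from cell to cell in the E9.5 posterior library. That of Isl1 is shown because it did not vary with them there. Capitals mark each match to GATA on either strand (TATC on the printed one), the core bound by Gata factors. All are printed 5′ to 3′ on the gene's strand.
Isl1, chr13:116309639-116309938, minus strand: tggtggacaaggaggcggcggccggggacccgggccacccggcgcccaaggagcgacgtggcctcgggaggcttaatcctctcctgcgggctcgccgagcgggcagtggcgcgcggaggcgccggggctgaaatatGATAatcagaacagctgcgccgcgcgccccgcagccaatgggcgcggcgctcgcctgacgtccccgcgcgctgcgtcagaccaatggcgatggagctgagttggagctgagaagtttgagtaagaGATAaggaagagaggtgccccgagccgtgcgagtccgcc
Nkx2-5, chr17:26841516-26841815, minus strand: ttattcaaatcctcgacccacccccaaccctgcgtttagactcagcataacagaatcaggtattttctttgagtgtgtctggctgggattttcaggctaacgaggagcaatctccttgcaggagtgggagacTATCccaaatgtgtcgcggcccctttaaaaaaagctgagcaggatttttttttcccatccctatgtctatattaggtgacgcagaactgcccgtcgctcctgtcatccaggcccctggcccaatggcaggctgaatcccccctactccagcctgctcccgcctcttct
Mef2c, first of 3 listed starts, chr13:83503784-83504083, plus strand: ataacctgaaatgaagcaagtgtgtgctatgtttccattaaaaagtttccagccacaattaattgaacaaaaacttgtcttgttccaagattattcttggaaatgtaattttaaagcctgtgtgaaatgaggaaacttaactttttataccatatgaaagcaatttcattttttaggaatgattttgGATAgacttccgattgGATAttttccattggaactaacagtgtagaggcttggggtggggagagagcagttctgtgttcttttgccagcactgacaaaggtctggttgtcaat
The Isl1 and Mef2c windows each held 2 matches to GATA and the Nkx2-5 window 1. The NK2 core AAGTG, searched on both strands and allowed to overlap GATA, matched once in the Mef2c window and not in the other two. GATA matched in 57.9% and AAGTG in 46.4% of all 32851 windows of this length. The Nkx2-5 start used here lies 3444 bases inside the gene as GENCODE draws it. Such matches are letters only, not sites.

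Isl1 (chromosome 13, 116298281 to 116309689, minus strand, mm10) was found in every library, and the end of the field with the higher level was anterior at E9.5 and posterior at E10.5. At E9.5 it measured 177 CPM in the anterior library (230 counts), 79.3 CPM in the middle (127 counts) and 86.8 CPM in the posterior library (1184 counts). At E10.5 it measured 56.0 CPM in the outflow tract (11 counts), 11.8 CPM in the anterior library (3 counts, all in 1 cell), 75.4 CPM in the middle (154 counts) and 123.5 CPM in the posterior library (426 counts). The anterior library was thus the highest of its stage at E9.5 and the lowest at E10.5. The posterior to anterior ratio at E9.5 was 0.489 (95% exact interval 0.424 to 0.566), and at E10.5 it was 10.46 (3.55 to 50.9). These and all later intervals of ratios and shares cover counting error only. In the order of levels, E9.5 anterior stood above E10.5 posterior, and E10.5 posterior above E9.5 posterior, beyond counting error. E9.5 posterior, E9.5 middle, E10.5 middle and outflow tract followed with no step between neighbours beyond it, and E10.5 anterior stood below the outflow tract. Without the cells of 2 or more Epcam UMIs, Isl1 was at 216 CPM in the E9.5 anterior, 49.3 CPM in the middle and 82.2 CPM in the posterior library, and at 22.8, 12.1, 76.1 and 133 CPM in the E10.5 outflow tract, anterior, middle and posterior libraries. The order of the 3 positions within each stage therefore kept its top library, anterior at E9.5 and posterior at E10.5.

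Nkx2-5 (chromosome 17, 26838664 to 26845009, minus strand) was abundant at E9.5 and close to the limit of counting at E10.5. At E9.5 it measured 130.4 CPM in the anterior library (169 counts), 38.1 CPM in the middle (61 counts) and 80.2 CPM in the posterior library (1095 counts). At E10.5 it had 1 count in the outflow tract (5.09 CPM), 0 counts in the anterior library, 7 counts in the middle (3.43 CPM) and 8 counts in the posterior library (2.32 CPM). In the order of levels the 3 E9.5 libraries stood apart from their neighbours, and neighbours among the 4 E10.5 libraries did not differ beyond counting error. Leaving out the cells of 2 or more Epcam UMIs gave 125 CPM in the E9.5 anterior, 51.6 CPM in the middle and 94.0 CPM in the posterior library, the same order.

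Nkx2-6 (chromosome 14, 69171802 to 69175518, plus strand) was highest in the E9.5 anterior library, and most of its counts lay in cells with Epcam. At E9.5 it measured 55.5 CPM in the anterior library (72 counts), 11.2 CPM in the middle (18 counts) and 3.52 CPM in the posterior library (48 counts). At E10.5 it had 4 counts in the outflow tract (20.3 CPM), all in 1 cell, 0 in the anterior library, 9 in the middle (4.41 CPM), of which 8 in 1 cell, and 2 in the posterior library (0.580 CPM). Each E10.5 level thus rests on 3 cells or fewer. Cells of 2 or more Epcam UMIs held 46 of 72 counts in the E9.5 anterior, 15 of 18 in the middle and 45 of 48 in the posterior library. The same cells held 66.1%, 45.5% and 16.0% of all UMIs there. The annotation places 56 bases of Nkx2-6 under an antisense gene, 1700092C10Rik, and whether the counting used strand is not given in the sources used here.

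Hand1 (chromosome 11, 57828705 to 57832818, minus strand) rested on few cells. At E9.5 it measured 40.1 CPM in the anterior library (52 counts, 36 of them in 1 cell), 3.12 CPM in the middle (5 counts) and 26.0 CPM in the posterior library (355 counts). At E10.5 it had 2 counts in the outflow tract (10.2 CPM), 0 in the anterior library, 7 in the middle (3.43 CPM) and 10 in the posterior library (2.90 CPM). The E9.5 anterior and posterior libraries were the 2 highest, and the neighbours below them were not apart beyond counting error. In the anterior library 49 of 52 counts came from cells of 2 or more Epcam UMIs, so that without them the level was 6.83 CPM there, 5.73 CPM in the middle and 19.4 CPM in the posterior library, and the order of anterior and posterior turned.

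Hand2 (chromosome 8, 57320983 to 57324633, plus strand) had its highest level over all cells in the E10.5 posterior library. At E9.5 it measured 20.1 CPM in the anterior library (26 counts), 8.12 CPM in the middle (13 counts) and 16.6 CPM in the posterior library (226 counts). At E10.5 it had 1 count in the outflow tract (5.09 CPM), 0 in the anterior library, 36 in the middle (17.6 CPM) and 99 in the posterior library (28.7 CPM). In the order E10.5 posterior, E9.5 anterior, E10.5 middle and E9.5 posterior no step between neighbours was beyond counting error, while E9.5 middle stood below E9.5 posterior. Without the cells of 2 or more Epcam UMIs the E9.5 anterior library came first, with 56.9 CPM (25 counts) against 14.9 CPM in the middle and 18.6 CPM in the posterior library, and E10.5 posterior was at 29.1 CPM (86 counts). Hand2 overlaps the antisense gene Hand2os1 over 3251 bases, so its counts are uncertain to that extent.

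Mef2c (chromosome 13, 83504034 to 83667080, plus strand) had its highest level in the E9.5 posterior library. At E9.5 it measured 41.7 CPM in the anterior library (54 counts), 14.4 CPM in the middle (23 counts) and 53.0 CPM in the posterior library (723 counts). At E10.5 it measured 15.3 CPM in the outflow tract (3 counts), 11.8 CPM in the anterior library (3 counts), 18.1 CPM in the middle (37 counts) and 28.4 CPM in the posterior library (98 counts). E9.5 posterior and anterior did not differ beyond counting error, E10.5 posterior came next, below E9.5 anterior and above E10.5 middle, and among the 4 lowest libraries no step between neighbours was beyond counting error. Without the cells of 2 or more Epcam UMIs the E9.5 anterior library came first, with 112 CPM against 24.1 CPM in the middle and 62.1 CPM in the posterior library.

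**Figure D1:**
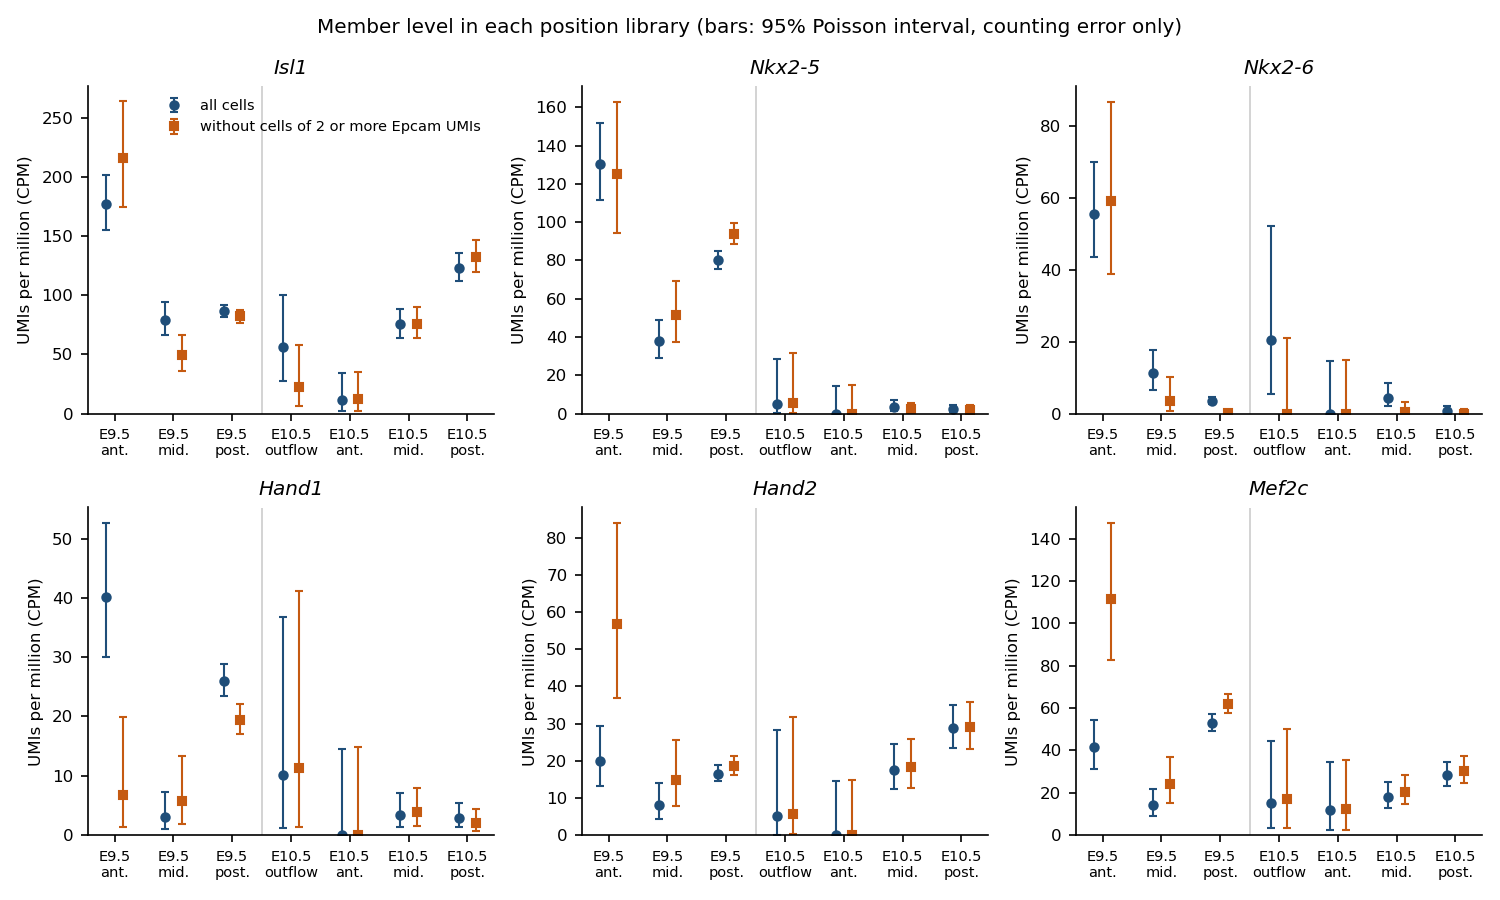
Level of each member in CPM (linear axis from 0, 1 panel per gene) in the 7 position libraries, for all cells (circles) and without cells of 2 or more Epcam UMIs (squares), with 95% Poisson intervals for counting error only. Nkx2-5 runs from 38.1 to 130.4 CPM at E9.5 and is at 5.09 CPM or less at E10.5, whereas Hand2 and Mef2c in the E9.5 anterior library rise from 20.1 to 56.9 CPM and from 41.7 to 112 CPM once the Epcam cells are left out.

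Shares of cells at equal depth were read after each cell was thinned at random to 4000 UMIs, which left out 8 E9.5 posterior cells. Isl1 then had a UMI in 44.4% of E9.5 anterior (24 of 54), 27.9% of middle (17 of 61) and 23.2% of posterior cells (95 of 410). At E10.5 it had one in 16.1% of outflow tract (5 of 31), 2.22% of anterior (1 of 45), 23.3% of middle (77 of 331) and 32.9% of posterior cells (184 of 560; 95% exact interval 29.0% to 36.9%). The anterior end was again the top of E9.5 and the bottom of E10.5. Before thinning the Isl1 shares were 88.9%, 62.3% and 55.3% at E9.5 and 19.4%, 2.22%, 29.9% and 39.5% at E10.5, so that the order of the 2 posterior libraries turns with depth.

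Nkx2-5 after thinning had a UMI in 33.3% of E9.5 anterior (18 of 54), 16.4% of middle (10 of 61) and 14.4% of posterior cells (59 of 410). At E10.5 it was seen in 0 of 31 outflow tract cells and 0 of 45 anterior cells, which at 3 counts of the total allow shares of cells with a UMI of up to 9.68% and 6.67%, in 4 of 331 middle cells (1.21%) and in 5 of 560 posterior cells (0.893%). Nkx2-5 thus stayed rarer at E10.5 once depth was equal. Thinning does not make the choice of cells equal. A limit of at least 1 Osr1 UMI, which every cell met before thinning, is stricter at the lower E10.5 depth. Its part in the shares was not tested. Nkx2-6 was seen in 18.5% of E9.5 anterior (10 of 54), 3.28% of middle (2 of 61) and 1.95% of posterior cells (8 of 410). At E10.5 its thinned counts were 0 of 31 outflow tract, 0 of 45 anterior, 1 of 331 middle and 2 of 560 posterior cells. All 8 of the E9.5 posterior cells with Nkx2-6 had 2 or more Epcam UMIs, against 0 of the 348 other cells, which at 3 counts of the total allows a share of cells with a UMI of up to 0.862%.

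Hand1 after thinning was seen in 2 of 54, 1 of 61 and 14 of 410 cells of anterior, middle and posterior E9.5 origin (3.70%, 1.64% and 3.41%). At E10.5 it was seen in 1 of 31 outflow tract, 0 of 45 anterior, 4 of 331 middle and 6 of 560 posterior cells. Hand2 was seen in 5.56%, 3.28% and 5.37% of E9.5 anterior, middle and posterior cells, and in 3.23%, 0%, 7.25% and 8.57% of E10.5 outflow tract, anterior, middle and posterior cells. For Hand1 and Hand2 the intervals of the 2 posterior libraries overlap. Mef2c was seen in 7.41%, 8.20% and 14.6% of E9.5 anterior, middle and posterior cells, and in 6.45%, 4.44%, 6.95% and 8.93% at E10.5 in the same order with the outflow tract first. In thinned cells of 2 or more Epcam UMIs Mef2c was seen in 0 of 34, 1 of 21 and 1 of 62 E9.5 anterior, middle and posterior cells. At E10.5 it was seen in 0 of 16 such middle cells and in 4 of 58 such posterior cells (6.90%), where the other posterior cells had it in 46 of 502 (9.16%) and the intervals overlap. Before thinning the median depth in the E9.5 posterior library was 31870 UMIs in those cells and 30876 UMIs in cells without Epcam.

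**Figure D2:**
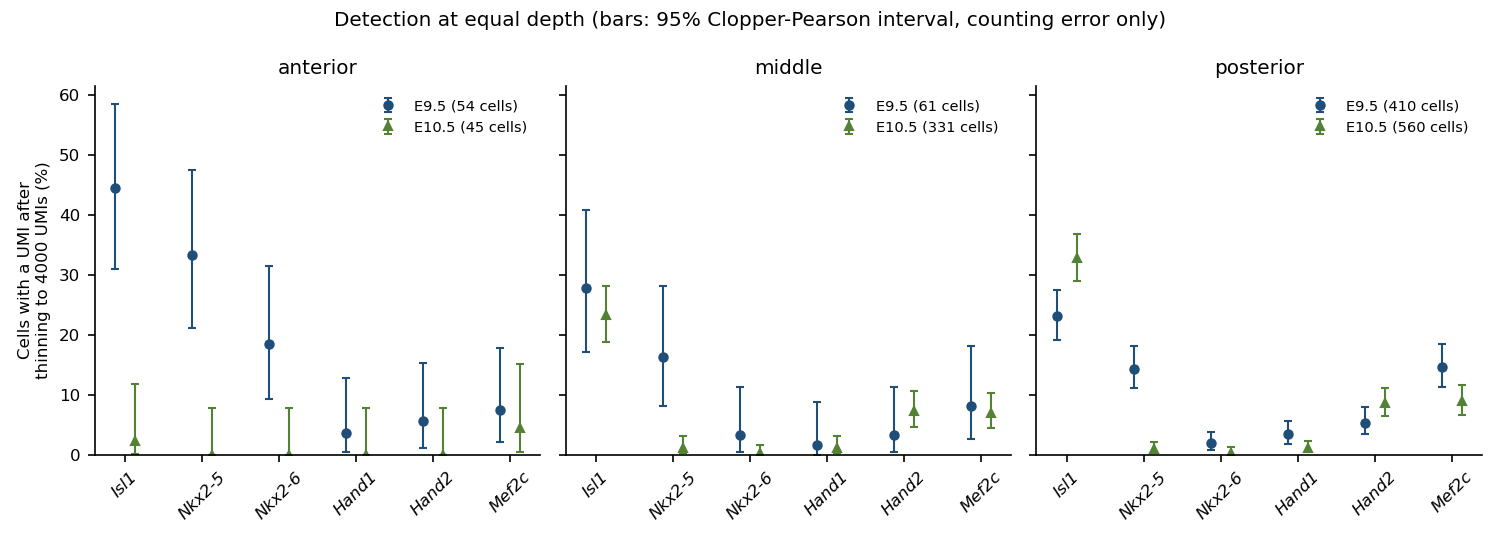
Percent of cells with at least 1 UMI of each member after thinning every cell to 4000 UMIs (linear axis from 0), with 1 panel per position, E9.5 beside E10.5, and exact Clopper-Pearson 95% bars for counting error only. Nkx2-5 stands at 33.3%, 16.4% and 14.4% at E9.5 and at 1.21% or less at E10.5, while Isl1 in the posterior panel is 23.2% at E9.5 and 32.9% at E10.5.

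Positions were compared in a fit of summed counts over the 3 positions present at both stages (6 libraries, edgeR quasi-likelihood with stage as a term, Benjamini-Hochberg adjustment over 9825 genes). No member passed the adjusted threshold of 0.05 in any of the 3 contrasts, and none did by DESeq2 or by limma. For posterior minus anterior 29 of all genes passed (0.295%; 0.153% higher and 0.142% lower), for posterior minus middle 19 (0.193%; 0.142% higher and 0.0509% lower), and for middle minus anterior 0 by edgeR (0%), where 345 genes had an unadjusted p under 0.05, DESeq2 called 4 and limma 0. Unadjusted p fell under 0.05 for 1 member in posterior minus anterior (Nkx2-6), for 2 in posterior minus middle (Nkx2-6 and Mef2c) and for 3 in middle minus anterior (Hand1, Nkx2-5 and Nkx2-6). Of all 9825 genes, 594, 378 and 345 had such a p by edgeR in these contrasts, in the same order. Nkx2-6 had the largest of the member differences, with a posterior minus anterior log2 difference of -3.84 ± 0.70 (SE, 6 libraries, edgeR adjusted p = 0.0937) and -2.16 ± 0.71 against the middle (adjusted p = 0.804). The posterior minus anterior log2 difference was -0.07 ± 0.62 for Isl1 (adjusted p = 1.00), whose 2 stages had opposite signs, -0.81 ± 0.42 for Nkx2-5 and -0.74 ± 0.69 for Hand1. It was 0.31 ± 0.66 for Hand2 and 0.34 ± 0.43 for Mef2c, both of which turned negative without the cells of 2 or more Epcam UMIs (-0.66 and -0.57). The median over the 6 members was -0.41 for posterior minus anterior and -1.16 for middle minus anterior, against 0.02 and -0.01 over all genes tested. These contrasts, with 2 residual degrees of freedom, turn on single libraries. In middle minus anterior all 6 members were negative, and all 6 turned positive without E9.5 middle. The values then were 0.21 for Isl1, 0.29 for Nkx2-5, 0.23 for Nkx2-6, 0.16 for Hand1, 0.37 for Hand2 and 0.15 for Mef2c. All 6 also turned positive without E9.5 anterior. Without the E9.5 anterior library, which leaves the anterior position with 0 to 3 counts per member, posterior minus anterior was 3.20 for Isl1 (called, adjusted p = 0.00440) and positive for Nkx2-6 (4.95) and the others, where a fitted value against 0 counts is no bound. Nkx2-6 was called lower (posterior minus anterior) when E10.5 anterior (-4.17), E10.5 middle (-3.73), E10.5 posterior (-3.85) or E9.5 middle (-3.73) was left out. For posterior minus middle, leaving out E10.5 posterior brought calls of Hand1 (2.20), Mef2c (1.47) and Nkx2-6 (-2.04), and leaving out E10.5 anterior one of Nkx2-6 (-2.02). For middle minus anterior, leaving out E10.5 anterior brought calls of Isl1 (-1.33), Nkx2-5 (-1.62), Nkx2-6 (-2.16) and Hand1 (-2.63), E10.5 posterior of Nkx2-5 (-1.63) and Hand1 (-2.66), E10.5 middle of Hand1 (-3.59) and E9.5 posterior of Nkx2-5 (-1.64).

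Mef2c and Hand2 were lower in cells with Epcam than in cells without it. The contrast was 2 or more Epcam UMIs minus 0, within each of 5 libraries with at least 10 cells of both kinds (edgeR, library as a term, 8520 genes). These 5 libraries come from only 2 samples, 1 per stage, and are not independent samples. Of all genes 685 passed (8.04%), 371 higher (4.35%) and 314 lower (3.69%) in the Epcam cells, and of the members 2 of 6 passed, both lower. Mef2c went from 108 to 5.84 CPM in the E9.5 anterior, from 25.6 to 2.75 CPM in the middle and from 66.8 to 5.05 CPM in the posterior library, and from 19.2 to 0 and from 31.0 to 16.3 CPM in the E10.5 middle and posterior libraries. It was lower in the Epcam cells of 5 of 5 libraries, with a log2 difference of -3.23 ± 0.39 (edgeR adjusted p = 8.37e-05) that passed in every setting run. Hand2 went from 64.1 to 1.17, from 14.6 to 0 and from 19.0 to 5.97 CPM in the 3 younger libraries, and from 18.1 to 12.4 and from 31.0 to 26.4 CPM in the older pair. It too was lower in 5 of 5 libraries (-1.82 ± 0.52, edgeR adjusted p = 0.0461), but the call was lost with DESeq2 (adjusted p = 0.102) and without the E9.5 anterior library (-1.17, adjusted p = 0.122). It was lost as well without E9.5 middle (adjusted p = 0.0703), E9.5 posterior (0.175) or E10.5 middle (0.0590) and held without E10.5 posterior (0.0215).

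The other 4 members did not pass. Nkx2-6 ran the other way, from 3.65 to 20.6 CPM in the E9.5 middle, from 0.102 to 20.7 CPM in the E9.5 posterior and from 0.583 to 33.2 CPM in the E10.5 middle library, but from 75.7 to 53.7 CPM in the E9.5 anterior library. Its log2 difference was 2.61 ± 0.86 (edgeR adjusted p = 0.0866). It was called by DESeq2 (4.20, adjusted p = 0.00138) and without the E9.5 anterior library (5.49), and was 1.31 without E9.5 posterior. Hand1 was higher in the Epcam cells of the E9.5 anterior (from 5.82 to 57.2 CPM) and posterior (from 20.9 to 60.6 CPM) and the E10.5 posterior library (4 counts in 58 cells, at 8.14 CPM, against 5 counts in 441), and at 0 in those of both middle libraries (1.47 ± 0.44, adjusted p = 0.0576). These levels rest on few cells: 3 of 34 Epcam cells in the E9.5 anterior library, 1 of which held 36 of 49 counts, and 4 of 63 in the E9.5 posterior library, 1 of which held 86 of 132. In the latter the count of cells with Hand1 was 37 of 308 without Epcam. Hand1 was called without E9.5 middle (1.71, adjusted p = 0.00551) or E10.5 middle (1.60, adjusted p = 0.0387). Nkx2-5 in the E9.5 posterior library was at 7.81 CPM in the Epcam cells and 99.99 CPM in those without Epcam, but in the E9.5 anterior library at 133 and 151 CPM (-1.42 ± 0.48, adjusted p = 0.0997; -2.20 and called without the E9.5 anterior library). The Isl1 difference was near 0 (0.04 ± 0.24, adjusted p = 0.981), at 158 against 245 CPM in the E9.5 anterior and 111 against 80.7 CPM in the E9.5 posterior library.

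**Figure D3:**
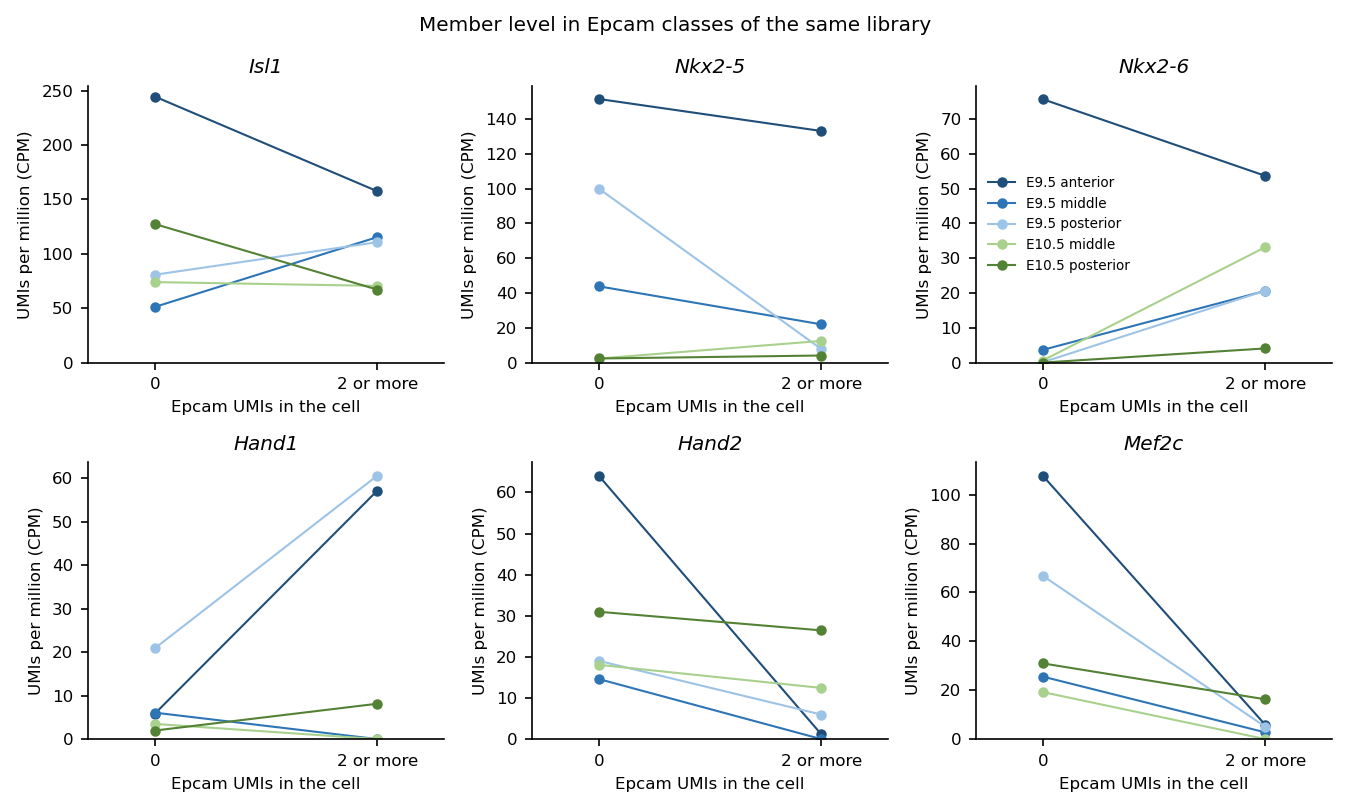
Level of each member in CPM (linear axis from 0, 1 panel per gene) in cells of 0 and of 2 or more Epcam UMIs, with a line for each of the 5 libraries of the fit. All 5 Mef2c and all 5 Hand2 lines fall towards the Epcam cells, and 3 of the 5 Nkx2-6 lines rise from 3.65 CPM or less to 20.6 CPM or more.

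Between stages there is 1 sample each and so no test, and ratios carry counting intervals only. The limit of at least 1 Osr1 UMI, met by every cell, is also stricter at the lower E10.5 depth. Nkx2-5 had an E10.5 to E9.5 ratio of 0.0289 (0.0125 to 0.0572) in the posterior and 0.0900 (0.0347 to 0.197) in the middle library, and in the anterior library it was at least 11.04-fold lower against the limit of 3 counts. Nkx2-6 was 6.06-fold lower at E10.5 in the posterior library (1.59 to 51.5, on 2 counts at E10.5) and 2.55-fold lower in the middle (1.09 to 6.44). Both of its intervals include less than 2-fold, and its anterior value is a limit against 0 counts. By these values, Nkx2-5 and Nkx2-6 were at least 2-fold lower at all 3 positions. That is 2 of 6 members, where 1.55% of 11013 genes did so, and 0 of 6 members were at least 2-fold higher at all 3 positions, where 2.75% of genes did so. Isl1 had a ratio of 0.0666 (0.0136 to 0.197) in the anterior, 0.951 (0.747 to 1.21) in the middle and 1.42 (1.27 to 1.59) in the posterior library. Hand2 was higher at E10.5 in the posterior (1.73, 1.35 to 2.20) and middle library (2.17, 1.12 to 4.46) and at least 1.70-fold lower in the anterior library. Hand1 had ratios of 0.111 (0.0530 to 0.207) in the posterior and 1.10 in the middle library. Mef2c had ratios of 0.536 (0.430 to 0.663) in the posterior, 1.26 (0.730 to 2.22) in the middle and 0.284 (0.0567 to 0.874) in the anterior library. Over the 3 positions the mean log2 ratio was 0.38 for Hand2 and -0.79 for Mef2c, and -0.43 and -1.48 without the cells of 2 or more Epcam UMIs. Beside these, summed cardiomyocyte markers were at 3147 CPM in the E9.5 posterior and 322 CPM in the E10.5 posterior library. In posterior cells with under 1% of UMIs from these markers, Mef2c was at 29.5 CPM at E9.5 and 28.5 CPM at E10.5. Nkx2-5 was at 36.6 and 2.33 CPM in such cells, Hand1 at 27.6 and 2.91 CPM and Nkx2-6 at 3.77 and 0.582 CPM. Isl1 was at 91.4 and 124 CPM and Hand2 at 15.0 and 28.2 CPM. With 1 sample per stage these differences were not tested. In the E10.5 anterior library 8 of 10 epithelial markers were at 0 counts, and their sum was 19.7 CPM against 1436 CPM in the E9.5 anterior library.

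Within single cells of the E9.5 posterior library, the deepest one, Nkx2-5 and Mef2c were found together. After thinning to 4000 UMIs Mef2c had a UMI in 30 of 59 cells with Nkx2-5 (50.8%, 37.5% to 64.1%) and in 30 of 351 cells without (8.55%). At 15000 UMIs, a depth chosen after seeing the data, the shares were 55 of 79 (69.6%) and 36 of 296 (12.2%), and cells with Mef2c held a median of 4 Mef2c UMIs with Nkx2-5 and 1 without. Tnnt2, the cardiac troponin T gene, was seen in 72.9% of the Nkx2-5 cells and 10.3% of the others at 4000 UMIs. Cells in which 10 cardiomyocyte markers took 1% or more of the UMIs numbered 28 of 418. They held 57.4% of the Nkx2-5 counts and 48.0% of the Mef2c counts but 1.60% of the Isl1 counts, and all 28 had both Nkx2-5 and Mef2c. The other 390 cells were at 36.6 CPM for Nkx2-5 and 29.5 CPM for Mef2c. Such cells numbered 2 in the E9.5 anterior, 0 in the E9.5 middle and 1 in the E10.5 posterior library.

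Isl1 and Nkx2-5 overlapped differently at the 2 depths. At 4000 UMIs Nkx2-5 was seen in 8 of 95 cells with Isl1 (8.42%, 3.71% to 15.9%) and in 51 of 315 without (16.2%, 12.3% to 20.7%). At 15000 UMIs it was seen in 46 of 172 cells with Isl1 (26.7%, 20.3% to 34.0%) and in 33 of 203 without (16.3%, 11.5% to 22.1%), so no direction is read from the shares. The amounts differed: cells with Nkx2-5 held a median of 2 Nkx2-5 UMIs where Isl1 was also seen and 9 where it was not. Split by both genes at 15000 UMIs, 46 cells had both, 126 Isl1 only, 33 Nkx2-5 only and 170 neither. Mef2c was at 113 CPM in cells with both, 13.2 CPM with Isl1 only, 329 CPM with Nkx2-5 only and 10.98 CPM with neither. Tnnt2 followed the same order at 212, 36.0, 2321 and 30.2 CPM. Foxf1, a forkhead gene of splanchnic mesoderm, was at 232 and 250 CPM in both kinds of Isl1 cells, 44.4 CPM with Nkx2-5 only and 207 CPM with neither. Barx1, a homeobox gene of foregut mesenchyme, was at 88.4 CPM with both, 194 CPM with Isl1 only, 14.1 CPM with Nkx2-5 only and 22.0 CPM with neither. For Mef2c, Tnnt2 and Barx1 the cells with both genes thus lay between those with Isl1 only and those with Nkx2-5 only. Hand1 was at 41.6 CPM where neither was seen (21 of 170 cells, 12.4%, 7.81% to 18.3%). With Nkx2-5 only it was at 0, in 0 of 33 cells (0% to 10.6%), and these intervals overlap. Before thinning, 3 cells held 62.0% of all Hand1 counts of this library.

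**Figure D4:**
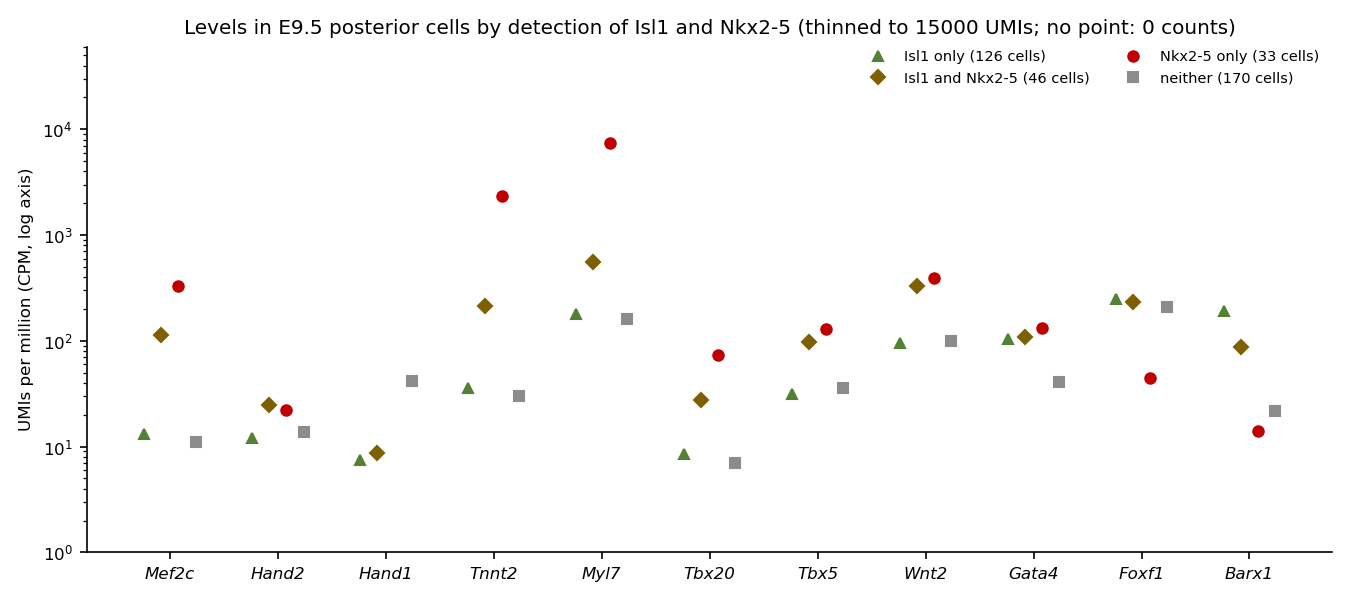
Level of 11 genes in CPM (log axis) in E9.5 posterior cells thinned to 15000 UMIs and split by detection of Isl1 and Nkx2-5 (46 cells with both, 126 with Isl1 only, 33 with Nkx2-5 only, 170 with neither). Mef2c is highest with Nkx2-5 only (329 CPM) and Barx1 highest with Isl1 only (194 CPM).

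In the E9.5 anterior library, at 15000 UMIs, 27 of 39 cells with Isl1 also had Nkx2-5 (69.2%, 52.4% to 83.0%). Of the cells without Isl1 3 of 8 had it, too few cells to read a difference. Nkx2-6 was seen there in 17 of 30 cells with Nkx2-5 (56.7%, 37.4% to 74.5%) and 5 of 17 without (29.4%, 10.3% to 56.0%), and those intervals overlap. In the E9.5 posterior library 14 of 18 cells with Nkx2-6 had Isl1 and 2 had Nkx2-5. By class, Nkx2-6 was in 12 of 126 cells with Isl1 only (9.52%, 5.02% to 16.0%) and 2 of 46 with Isl1 and Nkx2-5. It was in 0 of 33 with Nkx2-5 only and 4 of 170 with neither (2.35%, 0.645% to 5.91%). The intervals for Isl1 only and neither overlap. For the 2 Hand genes the shares also differed by depth. Hand2 was in 12 of 30 cells with Hand1 (40.0%, 22.7% to 59.4%) and 51 of 345 without (14.8%, 11.2% to 19.0%) at 15000 UMIs, and in 0 of 14 at 4000 UMIs. Mef2c was in 31 of 63 cells with Hand2 (49.2%) and 60 of 312 without (19.2%). At E10.5 posterior the same pair gave 11 of 48 (22.9%, 12.0% to 37.3%) and 39 of 512 (7.62%, 5.47% to 10.3%) at 4000 UMIs. Cells with 3 or more of the 6 members at 4000 UMIs made up 13.0% of the E9.5 anterior (7 of 54), 3.28% of the middle and 2.20% of the posterior library, and 0%, 0%, 1.81% and 1.07% of the E10.5 outflow tract, anterior, middle and posterior libraries.

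Isl1 varied with Barx1 at both stages. Across the 418 E9.5 posterior cells, of 9930 genes its 3 highest Pearson correlations were with Barx1 (r = 0.53), Id2 (0.40) and Dpysl3 (0.39), and across the 560 E10.5 posterior cells they were 0.46, 0.12 and 0.18. Barx1 had a UMI in 37 of 95 thinned cells with Isl1 (38.9%, 29.1% to 49.5%) and 31 of 315 without (9.84%, 6.79% to 13.7%) at E9.5 posterior, and in 131 of 184 (71.2%, 64.1% to 77.6%) and 144 of 376 (38.3%, 33.4% to 43.4%) at E10.5 posterior. In the E10.5 middle library it was in 1 of 77 and 12 of 254. Tbx5, a T-box gene of the posterior field, was in 10.3% of E10.5 posterior cells with Isl1 and 18.6% of those without, and Wnt2 in 7.07% and 16.8%. Nkx2-5 was most like Tnnt2 (r = 0.84), Mef2c (0.80) and Sh3bgr (0.80) at E9.5, and at E10.5, where few cells had it, these were 0.02, 0.04 and -0.02. Mef2c was most like Nkx2-5 (0.80), Tnnt2 (0.78) and Myl4 (0.77) at E9.5, and at E10.5 these were 0.04, 0.11 and 0.10. Hand1 was most like Ahnak (0.59), Msx1 (0.56) and Stard8 (0.54) at E9.5. At E10.5, where few cells had Hand1, these were 0.04, -0.03 and -0.01. Hand2 was most like Bambi (0.46), Dok4 (0.45) and Itm2a (0.45) at E9.5, and at E10.5 these were 0.15, 0.09 and 0.33. Nkx2-6, in 5.74% of cells, was under the 10% needed for this ranking. These cells share a library and differ in depth, so the correlations are descriptions.

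Partners of the members, factors known to act beside them in heart progenitors, included genes called along the axis. Of 18 partner genes, on a list chosen with earlier results of these data known, 16 were tested. For posterior minus anterior 2 were called higher and 2 lower (edgeR, adjusted over all genes), against 0.153% and 0.142% of all genes. Gata4 (adjusted p = 0.00656), a zinc finger factor of heart progenitors, and Tbx5 (0.0347), at 0 counts in both anterior libraries, were higher. Tbx1 (-3.84 ± 0.37, adjusted p = 0.00527), a T-box factor of pharyngeal mesoderm, was among the lower ones. Of 15 tested in the Epcam contrast 3 were lower, Tbx5 (-2.50 ± 0.34), Tbx2 (-2.33 ± 0.61) and Foxc2 (-3.46 ± 0.56). The list median was -0.82 against -0.03 over all genes. In that contrast 3.69% of all genes were lower and 4.35% higher. Of the 9 family relatives and dimer partners tested there, 2 NK2 genes were higher, Nkx2-1 (3.94 ± 0.72), known from lung and thyroid endoderm, and Nkx2-3 (2.76 ± 0.49). The basic helix-loop-helix genes Twist1 (-2.02 ± 0.43), Twist2 (-2.60 ± 0.40) and Tcf12 (-0.62 ± 0.15) were lower. No relative passed in a position contrast of 10 tested by edgeR.

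Of 10 downstream genes tested in the Epcam contrast 6 were lower and 1 was higher (3.69% and 4.35% of all genes), with a list median of -1.88. Among the lower ones were the muscle genes Ankrd1 (-4.41 ± 0.54), Nexn (-2.42 ± 0.37), Smyd1 (-2.13 ± 0.44) and Popdc2 (-2.09 ± 0.38) and the ligand gene Fgf10 (-1.70 ± 0.43). The higher one was Sema3c (1.77 ± 0.48), a guidance ligand gene. For posterior minus anterior 2 of 11 tested were called by edgeR, against 0.295% of all genes. Among the 2 was Fgf8, an anterior field ligand gene, which was lower (-5.71 ± 0.73, edgeR adjusted p = 0.0168). Between stages Fgf8 and Smyd1 were at least 2-fold lower and Shox2 at least 2-fold higher at E10.5 at all 3 positions. So were Eya1 (lower) among the partners and Tcf12 (higher) among the relatives. Genes of 50 or more counts numbered 12 downstream, 17 partners and 11 relatives, and of all such genes 1.55% were lower and 2.75% higher. The anterior values of Fgf8, Smyd1 and Shox2 are limits against 0 counts. Fgf8 in E10.5 posterior, Shox2 in E9.5 middle and Eya1 in E10.5 anterior had 1 count.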

How the data were processed

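The authors deposited UMI counts per gene and cell for 2 samples of wild-type mouse second heart field cells (1 sample per stage; whole-number counts, not normalized). Per the submitters' processing notes they used Cell Ranger 3.0 and Seurat with mm10; any cell filter, and whether strand was used in counting, are not given in the sources used here. Positions were read from barcode suffixes as the labels describe. Counts were summed per library and tested with edgeR 4.0.16 quasi-likelihood (TMM, filterByExpr) in R 4.3.3, called under an adjusted p of 0.05. DESeq2 1.42.0 and limma 3.58.1 were alternatives, with other filters, thinning, Epcam limits and each library left out. SE is the log2 difference divided by the square root of F. Ratios have exact conditional Poisson and shares Clopper-Pearson 95% intervals. Totals of 196584 to 13647039 UMIs per library set the precision. No doublets were removed in the values reported; Scrublet in scanpy 1.11.5 marked 5 of 418, 3 of 331 and 7 of 560 cells in the libraries of over 100 cells.

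The 6 members were taken by name; the likeness rule named the 3 most correlated genes per member, and list genes were named where a test called them, except some that are not reported here. Members and lists were chosen with earlier results of these data known. On simulated counts for posterior minus anterior (9504 genes) edgeR recovered 5 of 65, 46 of 66 and 59 of 66 genes changed by log2 1, 2 and 3, and for the Epcam contrast (8263 genes) 48 of 65, 60 of 60 and 63 of 63.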

Additional observations from a re-analysis of the deposited data

Results flagged for a closer look

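The Isl1 difference between the posterior and the anterior library had opposite signs at the 2 stages: the posterior minus anterior log2 ratio was 3.39 at E10.5 and -1.03 at E9.5. The difference between stages was not tested, since each stage is 1 sample. The E10.5 anterior value rests on 3 counts in 1 of 45 cells.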

How the results depend on the processing

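No paired analysis was possible because there is 1 sample per stage, so the stages share fewer than 2 replicate numbers; the position fits hold stage, and the Epcam fit library, as a term. Genes called were, for posterior minus anterior, 54 with DESeq2, 0 with limma (594 genes had an unadjusted p under 0.05 with edgeR), 260 with no filter, 0 with no stage term and 44 without cells of 2 or more Epcam UMIs. For posterior minus middle they were 33, 0, 178, 0 and 44, with 33 without any Epcam cell and 10 without cardiomyocyte-marker cells. For middle minus anterior they were 4 with DESeq2, 64 with no filter, 10 and 8 without the Epcam cells of 2 or more and of 1 or more UMIs, and 3 after thinning. For the Epcam contrast they were 1326 with no filter, 358 with Epcam of 1 or more and 233 after thinning. Leaving out 1 library gave 95 to 332, 37 to 231, 14 to 123 and 369 to 721 calls in these contrasts; a position left with a single library is assumed to vary like the others.

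Posterior minus anterior, Isl1 turned to 0.50 with DESeq2, 0.013 with limma, 0.011 with no filter and 0.016 without cardiomyocyte-marker cells; Hand2 to -0.66 and -0.67 and Mef2c to -0.57 and -0.41 without Epcam cells of 2 or more and of 1 or more UMIs; Nkx2-6 was called with no filter (-3.77). Posterior minus middle, Nkx2-6 was called with no filter (-2.16), Nkx2-5 turned to -0.22 without cardiomyocyte-marker cells and Hand2 to -0.064 after thinning. Middle minus anterior, Isl1 turned to 0.094 with DESeq2 and Hand2 to 0.038 with limma and 0.90 after thinning. In the Epcam contrast Hand2 lost its call with DESeq2's size factors in edgeR (-1.81), DESeq2 (-2.14) and Epcam of 1 or more (-1.22). Nkx2-6 gained one with DESeq2 (4.20) and no filter (2.60), Nkx2-5 with no filter (-1.40), and Hand1 with no filter (1.46) and without Scrublet-marked cells (1.54). Without Epcam cells the mean stage log2 ratio moved to -0.43 for Hand2 and -1.48 for Mef2c. The causes were not tested.

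Leaving out 1 library, posterior minus anterior ran from -1.002 to 3.20 for Isl1, -1.81 to 6.82 for Nkx2-5, -4.17 to 4.95 for Nkx2-6, -2.14 to 7.35 for Hand1, -0.43 to 9.95 for Hand2 and -0.14 to 1.49 for Mef2c. Posterior minus middle ran from -0.43 to 1.00 for Isl1, -0.93 to 1.11 for Nkx2-5, -3.96 to -1.53 for Nkx2-6, -0.63 to 3.13 for Hand1, 0.17 to 1.44 for Hand2 and 0.36 to 1.97 for Mef2c. Middle minus anterior ran from -1.33 to 2.85 for Isl1, -1.76 to 6.13 for Nkx2-5, -2.20 to 7.02 for Nkx2-6, -3.59 to 5.72 for Hand1, -1.17 to 9.19 for Hand2 and -1.45 to 0.30 for Mef2c. The Epcam contrast ran from -0.22 to 0.27 for Isl1, -2.20 to -0.28 for Nkx2-5, 1.31 to 5.49 for Nkx2-6, 1.25 to 1.71 for Hand1, -2.55 to -1.17 for Hand2 and -3.84 to -2.84 for Mef2c. The mean stage log2 ratio ran from -1.99 to 0.22 for Isl1, -4.29 to -3.47 for Nkx2-5, -2.42 to -1.79 for Nkx2-6, -2.46 to -0.81 for Hand1, 0.02 to 0.96 for Hand2 and -1.36 to -0.28 for Mef2c. Of the thinned shares 76 of 270 moved beyond their interval under another setting, and of the co-detection shares 66 of 195. Some fits without Epcam cells or after thinning gave no value for Nkx2-6, Hand1 or Hand2, which the filter removed. The Epcam fit without E9.5 posterior likewise gave none for Hand1, so the Hand1 range in that contrast rests on 4 fits.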

Other observations

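Hand1 counts in the E9.5 posterior library sat in few cells. The 11 of 418 cells with 5 or more Hand1 UMIs, a limit chosen after seeing the data, held 296 of 355 counts (83.4%), and 3 cells held 220. All genes compared in them were also chosen after seeing the data and are given without a test. Against the other cells these 11 had Msx1, a homeobox gene, at 247 against 18.5 CPM and keratin Krt8 at 585 against 223 CPM. Of the 11 cells 10 had a UMI of Msx1, against 23.1% of the other cells. All 11 had one of Krt8, as did 86.5% of the other cells. The ligand gene Wnt6 was at 203 against 3.65 CPM but in only 7 of the 11. The matrix gene Postn was at 286 against 3.11 CPM but in only 5 of the 11. Hand2 was at 54.3 against 15.2 CPM. Isl1 was at 8.36 against 89.6 CPM, Nkx2-5 at 2.09 against 83.1 CPM and Foxf1 at 83.6 against 216 CPM. Osr1 was at exactly 1 UMI in 10 of the 11 cells and in 24.1% of the others. In the E9.5 anterior library 2 of 54 cells held 47 of 52 Hand1 counts, both with exactly 1 Osr1 UMI.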
